A study of Mus musculus with 25 samples.

Results

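The genes described here are those of the mouse mitochondrial genome: 13 genes for proteins of the respiratory chain and the ATP synthase, 2 for ribosomal RNAs (rRNAs) and 22 for transfer RNAs (tRNAs). They were taken as every gene whose symbol starts with mt-, which gave 37 genes. Of these, 16 were listed among the 25158 genes of the oocyte table and the same 16 among the 34228 genes of the embryo table: all 13 protein genes, mt-Rnr1, mt-Rnr2 and 1 tRNA gene, mt-Tp. The other 21 tRNA genes have no row in either table. Both tables list only genes above 0 in at least 1 of their libraries, so no level is given for those 21.

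Smart-seq2 was run on 25 libraries of mouse strain C57BL/6, with the agent PBS (a buffered salt solution, the control) or the small molecule that the labels call VCD. The oocytes reached metaphase II (MII) during 16 h of maturation in vitro, and the embryos came from oocytes inseminated for 6 h in vitro. There were 4 libraries of MII oocytes with PBS and 5 with VCD; 2-cell embryos had 4 with each agent, as did morulae. The agents were in the media of maturation and of embryo culture, per the labels, and no genotype other than the strain is given. No source used here gives the full name or dose of VCD, how many oocytes or embryos went into a library (the design text speaks of single-cell sequencing), or whether a group's libraries are from separate animals or cultures. The p-values therefore measure only the spread between these libraries, which may be technical. Levels are FPKM, fragments scaled to gene length and to library size. They allow genes of different length to be compared only where each read has a single place. From the steps between low FPKM values, the libraries held between 15075832 and 20998296 counted reads, and every level of a member or copy under 200 reads (177 values) came out whole within 0.01 of a read.

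Mitochondria keep a small circular genome of their own. Both strands are transcribed as long precursors; in most places tRNAs stand between the longer genes and are cut out, which frees the messenger and ribosomal RNAs. Oocytes hold very large numbers of mitochondrial genomes, which are shared out among the cells as the embryo cleaves and are hardly copied before implantation. Smart-seq2 starts cDNA at poly(A) tails, which most mitochondrial messenger and ribosomal RNAs carry and mature tRNAs do not. Levels in libraries of this kind are relative to all counted RNA. Fewer mitochondrial genomes, less RNA from each and more RNA of other genes therefore cannot be told apart.

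The genes are packed with few gaps, and 4 pairs of protein genes share bases. The stretches of 3 pairs are shown because a read within the capitals belongs to both genes; sequences are from the GENCODE M21 transcripts of build GRCm38, read along the plus strand of the mitochondrial genome. They lie at positions 7907 to 7989, 10147 to 10193 and 13532 to 13585.
mt-Atp8 and mt-Atp6 overlap: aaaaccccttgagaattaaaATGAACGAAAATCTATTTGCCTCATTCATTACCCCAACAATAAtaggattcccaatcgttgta
mt-Nd4l and mt-Nd4 overlap: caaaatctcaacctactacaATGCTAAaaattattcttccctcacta
mt-Nd5 and mt-Nd6 overlap: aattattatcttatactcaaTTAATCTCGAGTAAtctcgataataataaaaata
The overlap of mt-Atp8 and mt-Atp6 starts at the ATG of mt-Atp6, and that of mt-Nd4l and mt-Nd4 at the ATG of mt-Nd4. mt-Nd6 is the only protein gene on the minus strand and meets mt-Nd5 end to end. Smart-seq2 does not keep the strand, so reads of mt-Nd6 and reads of RNA from the opposite strand there cannot be told apart.

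Part of this genome also stands in nuclear DNA. On chromosome 1 of GRCm38, 7 annotated unprocessed pseudogenes lie between 24611535 and 24616197 on the minus strand and match positions 6381 to 11042 of the mitochondrial genome in order. They were found as nuclear genes with at least 50% of their 50-base words in mitochondrial transcripts, and the 7 had 97.1% or more. Other annotated nuclear genes held smaller shares of such words and are not treated as copies here. The highest were Gm13341 (36.0%), Gm13340 (27.5%) and Gm13339 (17.6%) on chromosome 2, which match parts of mt-Co2, mt-Co1 and mt-Nd2. Gm28661 was identical to mt-Co2 over 681 bases, Gm10925 to mt-Atp6 over 678, Gm28437 to mt-Co3 over 783, Gm10222 to mt-Nd4l over 294 and Gm28439 to mt-Nd4 over 876. Gm29216 matched mt-Co1 at 486 of 492 bases and Gm28438 matched mt-Nd3 at 344 of 345. The first 90 bases of 3 copies are shown beside the gene they match, as the 2 that differ and 1 that does not, with differing bases in capitals.
mt-Co1 beside Gm29216: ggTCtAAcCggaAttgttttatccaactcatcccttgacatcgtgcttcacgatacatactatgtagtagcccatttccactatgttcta
Gm29216: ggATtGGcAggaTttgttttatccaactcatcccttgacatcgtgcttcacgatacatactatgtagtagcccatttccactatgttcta
mt-Nd3 beside Gm28438: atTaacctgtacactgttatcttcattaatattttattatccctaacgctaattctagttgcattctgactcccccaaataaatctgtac
Gm28438: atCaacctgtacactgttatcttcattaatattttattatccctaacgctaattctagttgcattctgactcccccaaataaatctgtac
mt-Atp6 beside Gm10925: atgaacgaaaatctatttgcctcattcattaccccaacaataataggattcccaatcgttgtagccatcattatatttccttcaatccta
Gm10925: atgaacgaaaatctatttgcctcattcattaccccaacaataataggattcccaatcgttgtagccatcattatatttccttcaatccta
The stretches of the copies are chr1:24616108-24616197, chr1:24613030-24613119 and chr1:24614562-24614651. Those of the members start at positions 6381, 9459 and 7927. Counted on the mitochondrial genome, with the base of the member first, the differences were T6383A, C6384T, A6386G, A6387G, C6389A and A6393T in Gm29216, and T9461C in Gm28438. All 6 differences of Gm29216 lie near its start.

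Seen from the members, the share of their 50-base words that also occurs in an annotated nuclear transcript was 100% for mt-Co2, 99.9% for mt-Co3, 99.5% for mt-Atp6, 98.8% for mt-Nd4l and 98.0% for mt-Nd3. It was 62.2% for mt-Nd4, 51.1% for mt-Co1, 8.19% for mt-Nd2, 7.61% for mt-Nd5 and 1.04% for mt-Rnr2. No word of mt-Nd1, mt-Nd6, mt-Cytb, mt-Rnr1, mt-Atp8 or mt-Tp was found in one. These shares count words in any annotated nuclear gene, not in the 7 copies alone. mt-Atp8 (positions 7766 to 7969) starts after the stretch matched by Gm28661 and runs into that matched by Gm10925, which starts at position 7927. It is inside the copied span, but no annotated copy holds all of it. The bases it shares with Gm10925 are fewer than the 50 of a word, so the count of words misses them. The tables of FPKM list the 7 copies beside the members. The copy held a median of 53.2% of the summed level of mt-Atp6 and Gm10925 over the 25 libraries (highest 64.2%). For mt-Co2 and Gm28661 this share was 31.1% to 60.7% (median 45.3%), and for mt-Co3 and Gm28437 it was 54.6% to 85.6% (median 78.1%). Where identical words leave a read no single place, the level of a member depends on how such reads were shared out or left out. No source used here describes that step, and a sum of member and copy lacks any read that was left out or given to another nuclear gene. For mt-Co1 and mt-Nd4, which reach beyond the copied span, the copy held at most 2.63% and 4.52%.

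**Figure D1:**
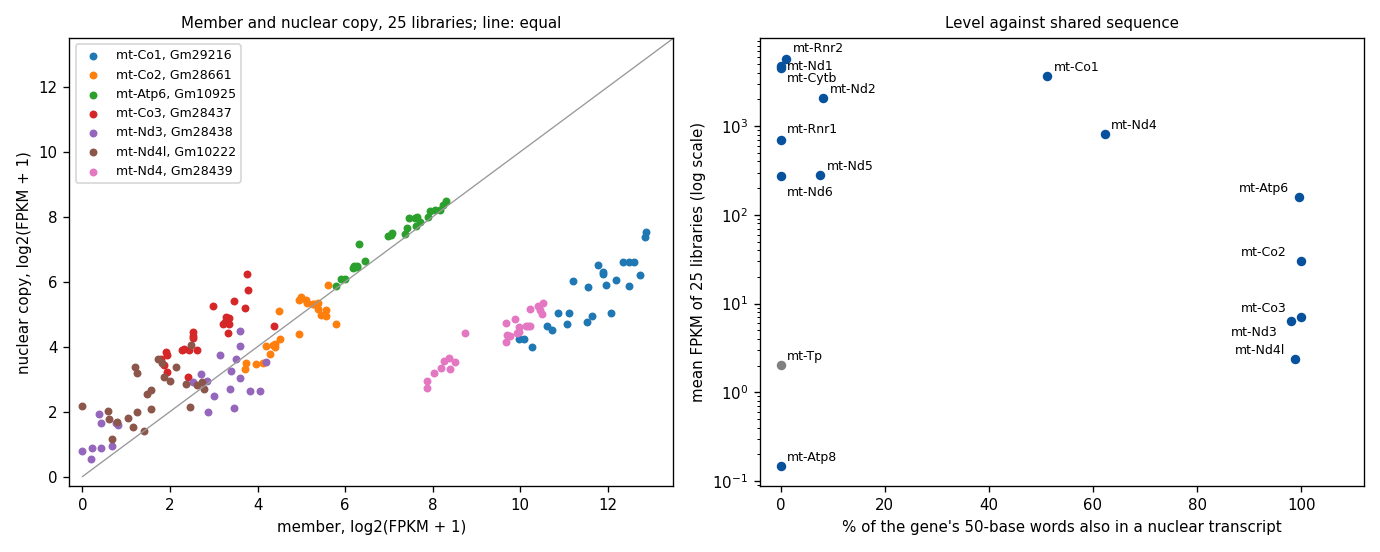
Left: log2(FPKM + 1) of each of 7 members against that of its nuclear copy, 1 point per library; mt-Atp6 lies near the line of equal levels, while mt-Co1 and mt-Nd4 lie far below it. Right: mean FPKM of the 25 libraries on a log scale against the percent of a gene's 50-base words found in a nuclear transcript; the 5 protein genes at 98.0% or more all lie below mt-Nd5 and mt-Nd6.

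The members spanned several orders of magnitude within every library. In PBS oocytes, mt-Cytb (the only mitochondrial subunit of complex III) was highest at 1775 ± 256 FPKM (SD, n = 4), followed by mt-Co1 (the catalytic core of complex IV) at 1585 ± 265 and mt-Rnr2 (the 16S rRNA) at 1332 ± 169. The ranges of these neighbours overlapped, as did those of mt-Rnr2 and mt-Nd1 (984 ± 191). Then came mt-Nd2 (538 ± 85.6), mt-Nd4 (292 ± 43.2) and mt-Rnr1, the 12S rRNA (158 ± 20.2), each apart from the next. The RNAs of the other 2 mitochondrial subunits of complex IV were listed far below that of mt-Co1: mt-Co2 stood at 17.6 ± 2.51 FPKM and mt-Co3 at 3.65 ± 1.18 in the same libraries. These are the genes whose words are almost all in a nuclear transcript too.

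The same order held in its main lines in embryos, with changes at the top. In PBS 2-cell embryos the order was mt-Cytb (8669 ± 563 FPKM, SD, n = 4), mt-Nd1 (4748 ± 517), mt-Co1 (3635 ± 430.1), mt-Rnr2 (2606 ± 171) and mt-Nd2 (2229.6 ± 156), and no neighbours among these overlapped. In PBS morulae mt-Rnr2 led at 13543 ± 1161 FPKM, followed by mt-Nd1 (8775 ± 2095), mt-Co1 (5721 ± 387) and mt-Cytb (4764 ± 753), of which only mt-Co1 and mt-Cytb overlapped. mt-Cytb thus went from the first place in 2-cell embryos to the fourth in morulae. At the other end, mt-Atp8, a small subunit of the ATP synthase, was never listed above 0.624 FPKM, which corresponds to 2 reads. mt-Atp6, with which it shares bases, stood at 69.7 ± 7.74 FPKM (SD, n = 4) in PBS oocytes. How reads that belong to both genes were counted is not described, so the listed level of mt-Atp8 may not be that of its RNA. The reads of mt-Atp8 summed to 2 in PBS oocytes, 5 in PBS and 2 in VCD 2-cell embryos, and 4 in PBS morulae. It had 0 reads in VCD oocytes and VCD morulae, and a count of 0 allows up to 3 reads in a library.

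**Figure D2:**
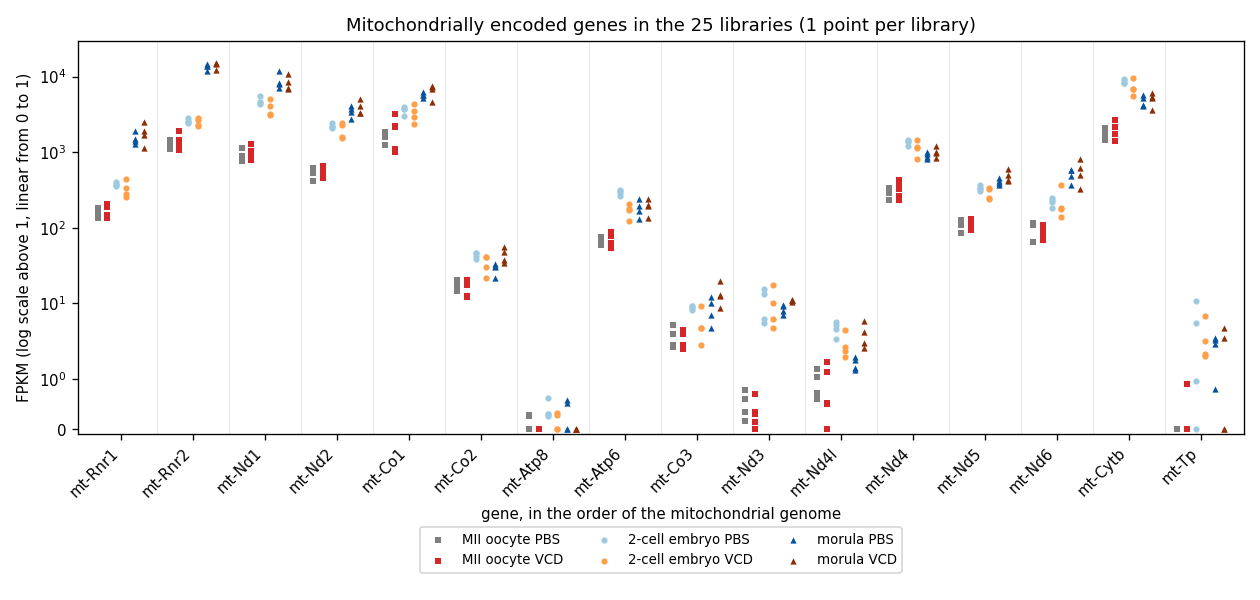
FPKM of the 16 listed genes in each of the 25 libraries, in the order of the genome, on an axis that is logarithmic above 1 and linear from 0 to 1; squares are MII oocytes, circles 2-cell embryos and triangles morulae, each with PBS and VCD side by side. The levels differ far more between genes than between agents, and mt-Rnr1 and mt-Rnr2 stand higher in all 8 morula libraries than in all 17 others.

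Oocytes and embryos are in separate tables, so their levels are set side by side without a test. From PBS oocytes to PBS 2-cell embryos, the mean levels of mt-Cytb, mt-Nd1, mt-Nd4, mt-Atp6 and mt-Nd2 were 4.88, 4.82, 4.64, 4.20 and 4.14 times as high, in that order. Those of mt-Nd5, mt-Co1, mt-Rnr1, mt-Nd6 and mt-Rnr2 were 3.06, 2.29, 2.38, 2.21 and 1.96 times as high. For mt-Co2 and mt-Co3 the ratios were 2.46 and 2.40. For mt-Nd4l (20 reads in PBS oocytes) and mt-Atp8 (2 reads) they were 5.00 and 2.73. FPKM are relative to the library total, so these ratios do not give amounts of RNA per oocyte or embryo. mt-Nd3, a small subunit of complex I, was listed at 0.166, 0.606, 0.34 and 0.768 FPKM in PBS oocytes, or 12 reads in all. It stood at 6.22, 5.54, 15.6 and 13.3 FPKM in PBS 2-cell embryos, or 236 reads. Its ratio of means, 21.6, was the highest of the 15 genes with a level in both groups, and it rests on those 12 reads.

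The share of all FPKM held by each class was read per library. The 13 protein genes held 1.98%, 1.79%, 1.44% and 2.05% in PBS oocytes, and 2.79%, 2.03%, 2.32%, 1.62% and 1.36% in VCD oocytes. They held 5.53%, 6.45%, 6.02% and 6.40% in PBS 2-cell embryos, and 4.11%, 4.75%, 6.82% and 5.36% in VCD 2-cell embryos. In morulae the values were 6.50%, 6.53%, 7.77% and 6.28% with PBS, and 7.26%, 6.21%, 8.57% and 6.46% with VCD. The ranges of PBS and VCD overlapped in every stage, and those of 2-cell embryos and morulae overlapped with each agent.

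The 2 rRNA genes behaved otherwise. They held 0.841%, 0.805%, 0.916% and 0.814% of all FPKM in PBS 2-cell embryos, and 3.53%, 4.52%, 4.01% and 4.46% in PBS morulae. With VCD the 2-cell libraries were at 0.748%, 0.736%, 0.880% and 0.933%, and the morula libraries at 3.72%, 4.47%, 4.72% and 4.67%. Every morula library was above every 2-cell library, while the agents overlapped within each stage. In oocytes the share was between 0.402% and 0.697% over the 9 libraries. As a ratio within the library, which does not depend on the library total, the summed level of the rRNA genes over that of the protein genes was 0.139 ± 0.0152 (SD, n = 4) in PBS 2-cell embryos and 0.615 ± 0.0997 in PBS morulae. It was 0.274 ± 0.0278 in PBS oocytes.

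**Figure D3:**
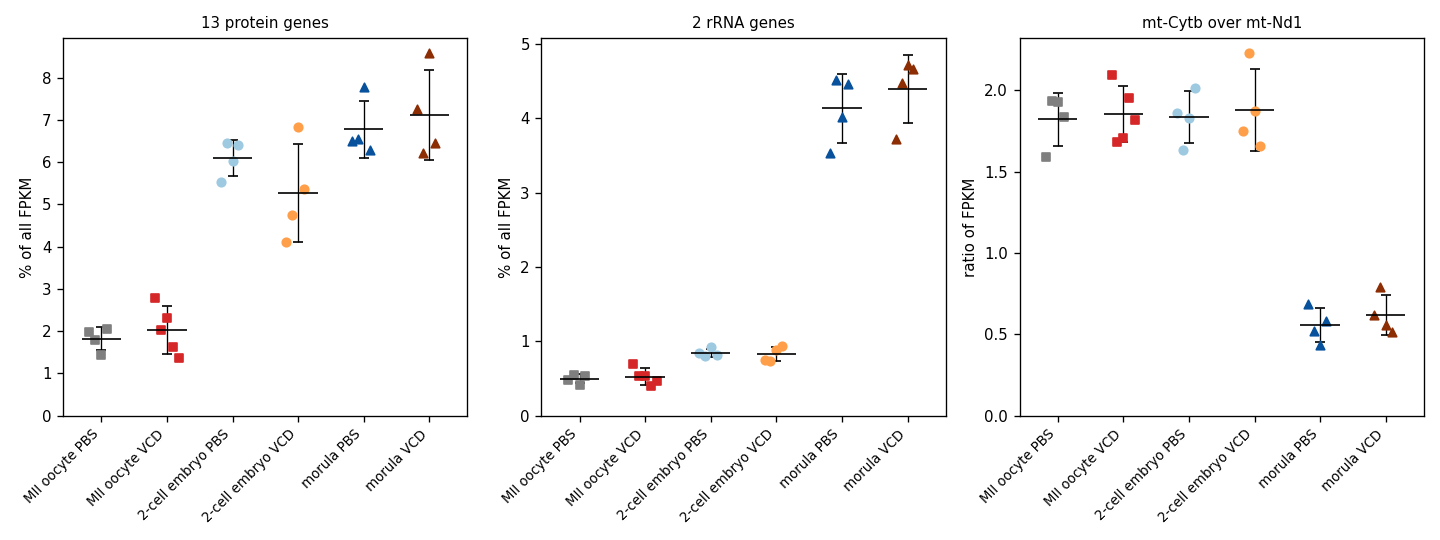
Percent of all FPKM held by the 13 protein genes (left) and by the 2 rRNA genes (middle), and the ratio of mt-Cytb to mt-Nd1 within each library (right); points are libraries, lines the group mean and bars the SD. The rRNA share is at least 3.53% in the 8 morula libraries and at most 0.933% in the 17 others, and the ratio is at least 1.59 in oocytes and 2-cell embryos and at most 0.789 in morulae.

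Morulae were compared with 2-cell embryos within each agent by limma on log2(FPKM + 1), over genes that reached 1 FPKM in 4 or more of the 8 libraries, with p-values adjusted over all those genes (Benjamini-Hochberg) and called below 0.05. Of 12517 genes tested with PBS, 42.7% were called higher in morulae and 45% lower. Of the members, 15 were tested (all listed genes but mt-Atp8): 7 were called higher, 5 lower and 3 neither, so the number called was near that of all genes. The median log2 fold change of the 12 protein genes tested was -0.13, and that of all genes -0.08. What set the members apart from one another was the direction and size, given next by role.

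Both rRNAs rose. mt-Rnr2 was at 2615, 2501, 2843 and 2465 FPKM in PBS 2-cell embryos and at 11920.4, 14651, 13639 and 13963 in PBS morulae. The groups were far apart: the log2 fold change was 2.38 ± 0.09 (SE; limma, adjusted p = 1.87e-09). mt-Rnr1 was at 404, 381, 356 and 367 FPKM and at 1499, 1908, 1388 and 1302, again with no overlap (2.00 ± 0.13, limma, adjusted p = 7.7e-08). The ratio of mt-Rnr2 to mt-Rnr1 within a library was 6.94 ± 0.706 (SD, n = 4) in PBS 2-cell embryos and 9.05 ± 1.47 in PBS morulae, with overlapping ranges.

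The 7 mitochondrially encoded subunits of complex I, which takes electrons from NADH, did not all move in the same direction with PBS. mt-Nd1 was at 4384, 5511, 4489 and 4607 FPKM in PBS 2-cell embryos and at 8233, 7963, 11829 and 7074 in PBS morulae. It rose by 0.86 ± 0.15 on the log2 scale (SE; limma, adjusted p = 0.000287), with 1 morula library, replicate 3, well above the others. mt-Nd2, the next protein gene along the genome, went from 2181, 2441, 2229 and 2068 FPKM to 3387, 4094, 3774 and 2764. It rose without overlap (0.64 ± 0.13, limma, adjusted p = 0.000643), and by 1.01 with quantile normalization (limma, adjusted p = 5.47e-07).

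mt-Nd6, on the minus strand, rose most of the protein genes, by 1.17 ± 0.17 (limma, adjusted p = 4.87e-05). Its levels were 219.7, 247, 234 and 183 FPKM in PBS 2-cell embryos and 581, 587, 481 and 371 in PBS morulae. Its neighbour mt-Nd5, with which it shares its end, was at 310.0, 362, 339 and 324 FPKM and then at 454, 413, 363 and 388. mt-Nd5 rose by only 0.27 ± 0.11 (limma, adjusted p = 0.0350), and its lowest morula library (363) was just above its highest 2-cell library (362). That call was lost without any 1 of 5 libraries (2-cell PBS replicates 1, 3 and 4, morula PBS replicates 1 and 2), with limma's adjusted p up to 0.103. It was also lost with no filter on low values, with FPKM rescaled to equal sums and in 1 fit of the 4 embryo groups (limma, adjusted p = 0.0981, 0.0633 and 0.0855). Quantile normalization lowered the value to 0.06 (limma, adjusted p = 0.647). The ratio of mt-Nd6 to mt-Nd5 was 0.661 ± 0.066 (SD, n = 4) in PBS 2-cell embryos and 1.25 ± 0.202 in PBS morulae, with no overlap. With VCD the ranges of this ratio overlapped, at 0.534 to 1.07 in 2-cell embryos and 0.787 to 1.42 in morulae.

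mt-Nd4 fell. It was at 1191, 1394, 1361 and 1469 FPKM in PBS 2-cell embryos and at 938, 818, 1004 and 876 in PBS morulae, without overlap (-0.57 ± 0.11, limma, adjusted p = 0.000409). mt-Nd4l, which overlaps its start, was at 5.15, 5.59, 4.57 and 3.39 FPKM and then at 1.76, 1.37, 1.96 and 1.29, or 94 and 36 reads in all. It fell by 1.12 on the log2 scale (SE 0.16, limma, adjusted p = 6.1e-05). For mt-Nd4 the sum with its copy Gm28439 gave nearly the same difference (-0.58), and for mt-Nd4l with Gm10222 it was smaller (-0.75), with no overlap in either sum. mt-Nd3 was at 9.44, 7.84, 9.29 and 7.08 FPKM in PBS morulae, within the range of the 2-cell libraries, and was not called (-0.14, 95% interval -0.79 to 0.51).

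mt-Cytb of complex III fell from 8171, 8995, 8216 and 9296 FPKM to 5633, 4160.1, 5154 and 4109.8. The groups did not overlap (-0.87 ± 0.12, limma, adjusted p = 3.35e-05), and no word of this gene is in a nuclear transcript. With quantile normalization the fall of mt-Cytb was smaller, at -0.41 (limma, adjusted p = 0.00871). Because mt-Nd1 rose, the ratio of mt-Cytb to mt-Nd1 within a library fell from 1.84 ± 0.159 (SD, n = 4) to 0.556 ± 0.104. With VCD the ratio was 1.88 ± 0.251 in 2-cell embryos and 0.619 ± 0.121 in morulae, and in PBS oocytes it was 1.82 ± 0.161. All 17 oocyte and 2-cell libraries were above all 8 morula libraries; the ratio was chosen after the values were seen, so it is given without a test.

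Of complex IV, which passes electrons to oxygen, mt-Co1 was at 3006, 3777, 3772 and 3983 FPKM in PBS 2-cell embryos and at 5245, 5716, 6194 and 5729.9 in PBS morulae. It rose by 0.66 ± 0.11 on the log2 scale (limma, adjusted p = 0.000147), and by 1.11 with quantile normalization (limma, adjusted p = 2.42e-06). mt-Co2 was called lower (-0.58 ± 0.15, limma, adjusted p = 0.00427), at 42.4, 38.3, 46 and 46.5 FPKM and then 30.8, 29.8, 33.3 and 21.5. Its identical copy Gm28661 went from 33.2 ± 4.12 to 40.8 ± 5.34 FPKM (SD, n = 4; 0.29, limma, adjusted p = 0.0790), and the sum of the pair overlapped between the stages (-0.15). The fall listed for mt-Co2 was not seen in the sum with the copy. As that sum may lack reads with several places, it cannot show whether the RNA of mt-Co2 fell. mt-Co3 was not called (-0.12, 95% interval -0.63 to 0.39).

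mt-Atp6 is the subunit of the ATP synthase through which protons pass. It was at 317, 302, 286 and 265 FPKM in PBS 2-cell embryos and at 192, 165, 238 and 131 in PBS morulae, and fell by 0.72 on the log2 scale (SE 0.17, limma, adjusted p = 0.00234). Gm10925 fell beside it (-0.60 ± 0.16, limma, adjusted p = 0.00399), and their sum did not overlap between the stages (-0.66). mt-Tp, on the minus strand next to mt-Tt, is the only listed tRNA gene; its sequence is shown because its level rests on reads of so short a gene.
mt-Tp: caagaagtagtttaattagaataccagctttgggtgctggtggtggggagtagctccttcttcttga
This is the whole gene, positions 15356 to 15422, read along its own strand. mt-Tp was at 0.95, 0, 5.52 and 10.6 FPKM in PBS 2-cell embryos, or 1, 0, 6 and 12 reads. It was at 2.84, 3.46, 0.791 and 3.27 in PBS morulae, and was not called (-0.04, 95% interval -1.54 to 1.45). In oocytes 1 read of mt-Tp was found in 9 libraries.

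With VCD, 41% of 12355 genes tested were called higher in morulae and 43.9% lower. Of 15 members tested, 8 were called higher and 1 lower. mt-Rnr2 was at 2299, 2236, 2697 and 2848 FPKM in VCD 2-cell embryos and at 12236, 15004, 15342 and 14688 in VCD morulae (2.51 ± 0.13, limma, adjusted p = 1.92e-08). mt-Rnr1 rose by 2.45 ± 0.25, mt-Nd6 by 1.42 ± 0.33, mt-Nd1 by 1.11 ± 0.20, mt-Nd2 by 1.03 ± 0.20, mt-Co1 by 1.02 ± 0.21 and mt-Nd5 by 0.76 ± 0.18 on the log2 scale (SE; limma, largest adjusted p = 0.00214). Quantile normalization lowered the rise of mt-Nd5 to 0.49 (limma, adjusted p = 0.0169). mt-Co3 rose as well (1.22 ± 0.31, limma, adjusted p = 0.00361), from 4.74, 2.76, 4.74 and 9.14 FPKM to 12.7, 19.7, 12.5 and 8.76, with overlapping ranges.

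mt-Cytb was the 1 member called lower with VCD (-0.50 ± 0.20, limma, adjusted p = 0.0345). Its levels were 5574, 6888, 9534 and 6835 FPKM in VCD 2-cell embryos and 5242, 5353, 6071 and 3662 in VCD morulae, so the ranges overlapped. The call was lost without 2-cell VCD replicate 2 or 3, or without morula VCD replicate 1 or 4, with adjusted p from 0.0536 to 0.111. It was also lost with a pseudocount of 0.1, with no filter and with quantile normalization, which gave -0.26 (limma, adjusted p = 0.0592, 0.227 and 0.155). The 4 other members that fell with PBS were not called with VCD: mt-Nd4 (-0.16), mt-Nd4l (0.34), mt-Atp6 (0.18) and mt-Co2 (0.39). A call with 1 agent and none with the other does not show a difference between the agents; that difference was tested as an interaction, which no member passed.

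**Figure D4:**
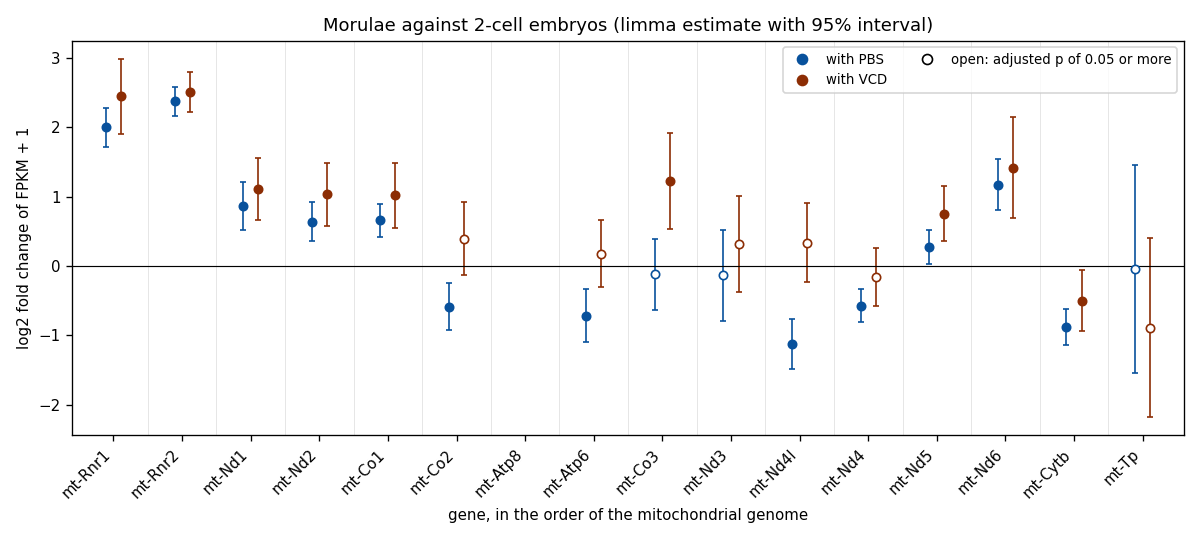
log2 fold change of FPKM + 1, morulae against 2-cell embryos, with PBS (blue) and VCD (brown) for the 15 genes tested, in the order of the genome; bars are 95% intervals and open points were not called by limma. The rRNA genes lie between 2.00 and 2.51 with both agents, while mt-Cytb lies below 0 with both.

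VCD was then compared with PBS within each stage. In MII oocytes 0.0115% of 8715 genes tested were called higher (1 gene, not a member) and 0% lower. Of 13 members tested none was called by limma, and none had an unadjusted p below 0.05, against 245 (2.81%) of all genes tested. The groups overlapped for every member tested, while 1.04% of all genes had groups that did not. mt-Cytb was at 1830.2, 1727, 1464 and 2081 FPKM with PBS and at 2651, 1758, 2169, 1763 and 1423 with VCD (log2 fold change 0.12, 95% interval -0.24 to 0.47). mt-Co1 varied widely with VCD, at 3191, 2229, 2137, 1086 and 1002 FPKM, against 1859, 1568, 1230.0 and 1683 with PBS (0.16, 95% interval -0.51 to 0.83). The median over the 11 protein genes tested was 0.03, beside 0.01 for all genes tested. Of the 11, 7 were above 0, as were 53.9% of all genes tested. Libraries differed as wholes: PBS replicate 3 was lowest of its group in 9 of the 9 protein genes that reached 10 FPKM, and VCD replicate 5 in 7.

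In 2-cell embryos 0% of 11369 genes tested were called higher and 0% lower. No member was called, and 3 of 15 had an unadjusted limma p below 0.05: mt-Atp6, mt-Co3 and mt-Nd4l, all lower with VCD. Over all genes 391 (3.44%) had such a p. Groups that did not overlap were found for 1 member, mt-Atp6, and for 2.16% of all genes tested. All 12 protein genes tested had a log2 fold change below 0, with a median of -0.28 against 0.01 for all genes tested. Of all genes tested, 53.7% were above 0. The members share libraries, so these signs are not independent of each other. VCD replicate 2 was lowest of its group in 6 of the 9 protein genes at 10 FPKM or more, and VCD replicate 3 highest in 5. Other libraries were mixed: VCD replicate 1 was lowest in 3 and highest in 1, and PBS replicate 4 highest in 4 and lowest in 3. mt-Cytb was at 8171, 8995, 8216 and 9296 FPKM with PBS and at 5574, 6888, 9534 and 6835 with VCD (-0.29, 95% interval -0.63 to 0.05).

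mt-Atp6 had the smallest p of the members in that comparison, at rank 3 among all genes. It was at 317, 302, 286 and 265 FPKM with PBS and at 209, 124, 176 and 169 with VCD. Every VCD library was below every PBS library, with a log2 fold change of -0.80 ± 0.15 (SE; 95% interval -1.14 to -0.47), and yet it was not called (limma, adjusted p = 0.850). Its identical copy Gm10925 was at 354, 329, 298 and 293 FPKM with PBS and at 227, 169.6, 247 and 201 with VCD, also without overlap (-0.60 ± 0.13, limma, adjusted p = 0.883). Their sum was 611 ± 50.2 FPKM with PBS and 381 ± 64.4 with VCD (SD, n = 4 each). mt-Atp8, which shares its end with mt-Atp6, had 5 reads with PBS and 2 with VCD, too few to compare.

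mt-Co3 was at 8.2, 9.23, 8.57 and 9.08 FPKM with PBS and at 4.74, 2.76, 4.74 and 9.14 with VCD. The highest VCD library was inside the PBS range (-0.71, 95% interval -1.27 to -0.16, limma, adjusted p = 0.999). mt-Nd4l was at 5.15, 5.59, 4.57 and 3.39 FPKM with PBS and at 4.47, 1.94, 2.32 and 2.66 with VCD, again with overlap (-0.58, 95% interval -1.05 to -0.12, limma, adjusted p = 0.999). Of the rRNAs, mt-Rnr2 differed by -0.05 (95% interval -0.30 to 0.20) and mt-Rnr1 by -0.24 (95% interval -0.59 to 0.11). The value of mt-Rnr1 was near the median of the protein genes tested, -0.28. Among the other copies Gm28439 was lower with VCD without overlap (-0.46, limma, adjusted p = 0.999), at 34.7, 33.7, 36.8 and 39.5 FPKM against 25.3, 24.1, 31.3 and 24. Its member mt-Nd4 overlapped between the agents, at 1191, 1394, 1361 and 1469 against 812, 1127, 1446 and 1165 FPKM.

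In morulae 0.01% of 9959 genes tested were called higher (1 gene, not a member) and 0% lower. No member was called, and 2 of 15 had an unadjusted limma p below 0.05, mt-Nd4l and mt-Co2, both higher with VCD. Over all genes 311 (3.12%) had such a p. Of the 12 protein genes tested, 11 were above 0, with a median of 0.17 against -0.01 for all genes, of which 48.9% were above 0. The members share libraries, so these signs are not independent of each other. VCD replicate 3 was highest of its group in 7 of the 9 protein genes at 10 FPKM or more. PBS replicate 4 and VCD replicate 4 were each lowest of their group in 6. The PBS and VCD libraries did not overlap for 3 members of 15, all higher with VCD, and for 2.04% of all genes tested. mt-Nd4l was at 1.76, 1.37, 1.96 and 1.29 FPKM with PBS (36 reads) and at 2.53, 5.83, 4.18 and 3 with VCD (74 reads; 0.87, 95% interval 0.34 to 1.40). mt-Co2 was at 30.8, 29.8, 33.3 and 21.5 with PBS and at 33.9, 54.8, 47.7 and 37.4 with VCD (0.57, 95% interval 0.11 to 1.03). mt-Nd3 was at 9.44, 7.84, 9.29 and 7.08 with PBS and at 10.3, 11, 11.1 and 11.1 with VCD (0.34, 95% interval -0.04 to 0.73).

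All 3 are genes with an almost full nuclear copy, and the ranges of the sum with the copy overlapped between the agents in each. The sum for mt-Nd4l and Gm10222 was 7.97 ± 2.49 FPKM with PBS and 11.0 ± 1.33 with VCD (SD, n = 4 each). That of mt-Co2 and Gm28661 was 69.6 ± 10.2 with PBS and 83.8 ± 14.8 with VCD. The differences of these sums, 0.46 and 0.26 on the log2 scale, were smaller than those of the members alone. For mt-Nd3 and Gm28438 the sum was 16.2 ± 3.73 FPKM with PBS and 24.6 ± 6.09 with VCD. Its difference of 0.57 was larger than the 0.34 of mt-Nd3 alone. The members without nuclear words overlapped between the agents: mt-Nd1 by -0.07 (95% interval -0.49 to 0.35), mt-Cytb by 0.08 (-0.30 to 0.47), mt-Nd6 by 0.12 (-0.46 to 0.69) and mt-Rnr1 by 0.21 (-0.28 to 0.70) on the log2 scale.

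**Figure D5:**
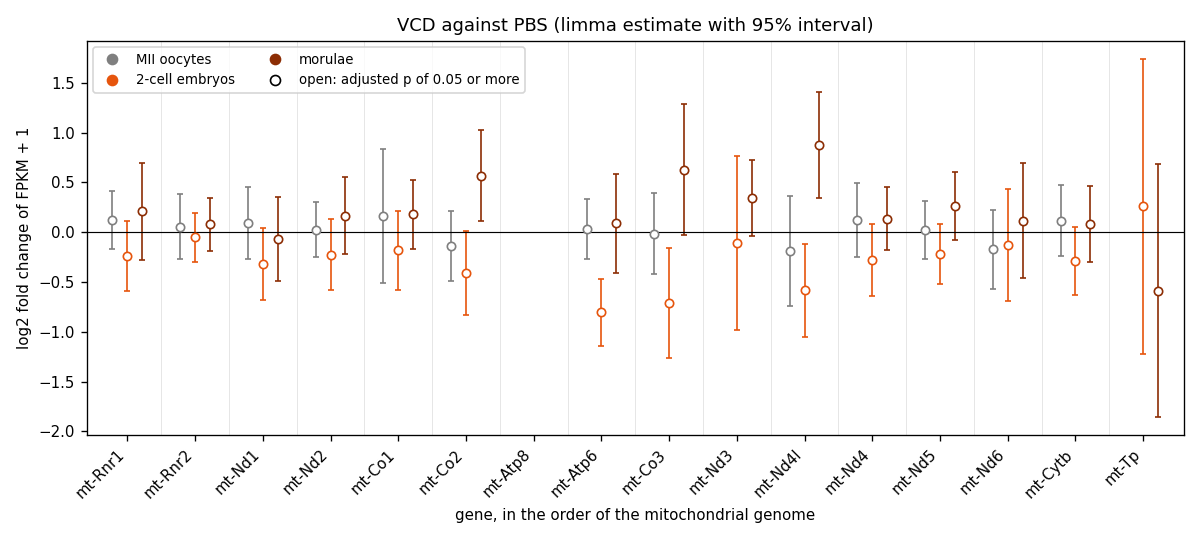
log2 fold change of FPKM + 1, VCD against PBS, in MII oocytes (grey), 2-cell embryos (orange) and morulae (brown), with 95% intervals; mt-Atp8 was not tested in any stage, and mt-Nd3 and mt-Tp not in oocytes. All points are open because limma called none, and the interval of mt-Atp6 in 2-cell embryos, -1.14 to -0.47, is the one farthest from 0.

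The difference of the VCD effect between morulae and 2-cell embryos was tested as an interaction over the 4 embryo groups: 0% of 14144 genes were called higher and 0% lower. All 12 protein genes tested had a positive value, that is, VCD higher relative to PBS in morulae than in 2-cell embryos. Their median was 0.43 against -0.01 for all genes, of which 47.9% had a positive value. The members share libraries, so these signs are not independent of each other. Of 15 members, 5 had an unadjusted limma p below 0.05, namely mt-Nd4l, mt-Co2, mt-Co3, mt-Atp6 and mt-Nd5, and none was called. Over all genes 502 (3.55%) had such a p. The value for mt-Nd4l was 1.46 ± 0.31 (SE; limma, adjusted p = 0.429) and that for mt-Atp6 0.89 ± 0.29 (adjusted p = 0.9995). The comparisons of agents and of stages use the same PBS and VCD embryo libraries, so their values for a gene are not independent of each other.

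The nuclear genes that make, process, modify and degrade mitochondrial RNA, or copy its genome, were read as a list of 49 genes. With PBS, 44 of them were tested between morulae and 2-cell embryos: 25 were higher in morulae and 10 lower, with a median log2 fold change of 0.70. Over all genes tested, as given above, 42.7% were higher and 45% lower, with a median of -0.08. Of the 9 genes of transcription tested, 6 were higher and 1 lower. Of the 9 genes of rRNA and tRNA modification, 4 were higher and 5 lower.
The largest rises were of Mrm3 (3.88 ± 0.14, SE) and Mrm2 (3.58 ± 0.17), methyltransferases of the 16S rRNA. Lrpprc, which stabilizes mitochondrial messenger RNAs, went from 2.00 ± 0.488 to 24.7 ± 7.25 FPKM (SD, n = 4 each; 3.07 ± 0.22). Tefm, the elongation factor of mitochondrial transcription, went from 1.58 ± 0.323 to 20.5 ± 8.19 FPKM (2.99 ± 0.25). The largest adjusted p of these 4 was that of Tefm (limma, 6.3e-07).

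The largest falls in the list were of Nsun4 (-4.70 ± 0.13), Nsun3 (-2.99 ± 0.26) and Mettl15 (-1.99 ± 0.23), which methylate mitochondrial rRNA or tRNA. Nsun4 went from 43.7 ± 3.22 to 0.725 ± 0.192 FPKM (SD, n = 4 each; limma, adjusted p = 2.6e-10). Mtpap, the mitochondrial poly(A) polymerase, went from 59.9 ± 4.57 to 19.2 ± 3.32 FPKM (-1.61 ± 0.15, limma, adjusted p = 1.52e-06). With VCD, 24 of 44 were higher and 9 lower, with a median of 0.69, beside 41% and 43.9% of all genes and a median of -0.08. No gene of the list was called by limma between VCD and PBS: 32 were tested in oocytes, 38 in 2-cell embryos and 41 in morulae, of which 1, 1 and 0 had an unadjusted p below 0.05. Those of smallest p were Ptcd1 (0.32 ± 0.14) and Elac2 (0.27 ± 0.15) in oocytes, Tbrg4 (0.45 ± 0.18) and Ptcd3 (0.24 ± 0.12) in 2-cell embryos, and Mterf3 (-0.29 ± 0.15) and Pnpt1 (0.42 ± 0.24) in morulae.

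Lists of marker genes were read to check the labels. The summed level of 7 oocyte markers was 7735 to 10725 FPKM in oocytes, 2912 to 3747 in 2-cell embryos and 28.7 to 60.2 in morulae. The 5 markers of 2-cell embryos summed to 930 to 1381 FPKM there and to at most 28.7 elsewhere, and the 7 morula markers were at 198 to 340 FPKM in morulae against 29.1 to 44.1 in 2-cell embryos. Oocytes stood between, at 69.4 to 149 FPKM. Of that list Cdh1, a gene of cell adhesion, was higher in oocytes (67.4 FPKM with PBS and 65.4 with VCD) than in morulae (27.8 and 26.9), while Nanog and Cdx2 were at 0 in all oocyte libraries. The 10 markers of cumulus and granulosa cells, which surround the oocyte, summed to 7.59 to 11.6 FPKM in oocytes, 4.03 to 9.29 in 2-cell embryos and at most 0.238 in morulae; Foxl2 was at 0 in all PBS and VCD oocytes. Cyp19a1 alone made up most of the oocyte sum, with a mean of 8.85 FPKM with PBS and 8.35 with VCD, and the next marker, Inha, was at 0.474 and 0.352. The part of these cells in the oocyte levels was not tested. The 5 markers of sperm summed to at most 1.93 FPKM in any library.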

How the data were processed

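Smart-seq2 cDNA libraries were sequenced from 25 samples in 6 groups. The authors deposited 2 tables of FPKM, 1 of oocytes and 1 of embryos; the submitters' processing notes name Bowtie2 2.2.3, TopHat2 2.0.12 and a build entry, galGal4, that is not a mouse build, while the gene identifiers are mouse Ensembl ones. The counting tool, its annotation and its handling of reads with several places are not described in the sources used here. Identifiers were matched to symbols for 25073 of 25158 and 34065 of 34228 genes. The tables were made separately, so no test crosses them.

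From these values, limma 3.58.1 (R 4.3.3, trend on abundance) was run on log2(FPKM + 1) over genes that reached 1 FPKM in 4 or more of the compared libraries, with Benjamini-Hochberg adjustment over all genes tested and calls below 0.05. FPKM are not counts, and no count model was used. The scripts were tested on simulated data. Other steps used Python 3.11.15, pandas 2.3.3, numpy 2.4.6 and SciPy 1.17.1. Sequences, positions and nuclear copies came from GENCODE M21 transcripts (GRCm38); copies were nuclear genes with at least 50% of 50-base words, on either strand, in mitochondrial transcripts.

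All protein and rRNA genes were named, and tRNA genes and copies with a group mean of 1 FPKM or more. Of the list of nuclear genes, the 4 largest rises and falls among called genes with groups apart were named (morulae against 2-cell embryos with PBS), and the 2 of smallest p in each VCD comparison. The members and lists were chosen with earlier results of these data known. Class shares, sums with copies and ratios are scores over members and are given without p, although exact tests had been planned for shares and sums. The ratios were chosen after values were seen. Alternatives were the pseudocount, the filter, 3 scalings, array weights, a replicate block, 1 fit of the embryo groups, leaving out each library, the denominator of the shares and the threshold for copies.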

Additional observations from a re-analysis of the deposited data

Results flagged for a closer look

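In 5 of 108 sets of values, each of 1 gene or class in 1 group, 1 library stood apart from the others of its group by Dixon's criterion. Chance meets it in about 1 in 20 sets, a rate that does not hold for sets of 0 or few reads. The 108 include sets at 0 throughout, and they share libraries, so they are not independent of each other. mt-Nd6 was at 64.6 FPKM in PBS oocyte replicate 3, against 108 to 115 in the other 3 libraries; that library was also the lowest in 9 of 9 protein genes. The protein genes held 7.77% of all FPKM in PBS morula replicate 3, against 6.28% to 6.53% in the others. mt-Nd3 was at 10.3 FPKM in VCD morula replicate 1, against 11.0 to 11.1 in the others. The remaining 2 rest on 1 or 2 reads: mt-Atp8 was at 0.624 FPKM in PBS 2-cell replicate 1, against 0.263 to 0.302, and mt-Tp was at 0.903 FPKM in VCD oocyte replicate 3, against 0 in the others.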

How the results depend on the processing

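No member was called between VCD and PBS in any stage, or in the interaction, under any alternative run, the replicate block included (0 members called in each). Same-numbered libraries did not deviate together (r from -0.33 to 0.38), so the numbers were not taken as pairs. No called value changed direction. In morulae against 2-cell embryos with VCD, the number of members called lower was 1 and became 0 with a pseudocount of 0.1, with no filter and with quantile normalization, and ran from 0 to 1 when each library was left out; without morula VCD replicate 4, mt-Cytb was lost (limma, adjusted p = 0.111) and mt-Tp called (adjusted p = 0.0406). mt-Nd3 was called higher without 2-cell VCD replicate 4 (limma, adjusted p = 0.0307), mt-Nd4l with quantile normalization (0.0484) and mt-Co2 with array weights (0.0477). As a share of protein-coding FPKM, the rRNA difference between the stages was 3.78 percentage points with PBS and 4.14 with VCD, against 3.29 and 3.57 of all FPKM. Rescaling to equal sums moved the median of all genes from -0.08 to -0.20 with PBS and to -0.23 with VCD, and quantile normalization moved it to 0.03 and 0.02. The same 7 nuclear copies were found at 90% of words. That threshold could not change them, as each had 97.1% or more and the next nuclear gene, Gm13341, had 36.0%. Between VCD and PBS, values that were not called changed sign or became 0 under an alternative in 18 of 215 cases in oocytes. The same held for 10 of 251 in 2-cell embryos and 11 of 253 in morulae. Levels of mt-Atp8 and mt-Tp, and of mt-Nd3 and mt-Nd4l in oocytes, rest on few reads.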
